A study of Homo sapiens with 28 samples.

Results

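The genes described are 53 collagens and other extracellular matrix genes, chosen by name: fibrillar, basement membrane and other collagens, laminins and nidogens, adhesive and fibril-forming glycoproteins, matricellular proteins, proteoglycans, the proteases that cut matrix with their inhibitors, and a pair of cross-linking enzymes. They were followed in A549 and H1299, established human non-small cell lung cancer lines. Each line received azacitidine at 0.3, 1 or 3 µM, decitabine at 0.3, 1 or 3 µM, or the vehicle dimethyl sulfoxide. The drug was given for 48 h and renewed every 24 h. There were 2 one-colour Affymetrix arrays of total RNA for each of the 14 groups, 28 in all, and that number limits the precision. Azacitidine is a cytidine analog with a ribose sugar and is built into RNA as well as DNA, and decitabine is its deoxyribose form and is built into DNA, where both bind DNA methyltransferases irreversibly. The comparison asks how the responses to the 2 drugs relate over the dose range. Each line is 1 cell line grown on plastic, with no fibroblasts or tissue matrix around it, and the labels name no separate cultures for the 2 arrays of a group. The p-values below therefore cover only how far these arrays lie apart, which may be technical.

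Of the 53 genes, 43 could be tested. The probe annotation listed no probe set for COL12A1, COL17A1 and LAMA3. For COL3A1, COL6A2, COL13A1, LAMA4, LUM, BGN and LOX no probe set reached the array median signal on 2 arrays. The 43 tested genes thus passed a filter on low signal, and 16 of them passed it only through A549 arrays, 2 only through H1299 arrays (COL1A2 and MMP1) and 25 through arrays of both lines. COL6A3 and SERPINF1 in A549 and MMP1 in H1299 were under the median on the vehicle arrays and passed only through treated arrays. Their rises over vehicle there are therefore descriptions. Each gene stands for its brightest probe set, and 19 of the 43 had more than 1 above the filter. In the comparisons with vehicle at 3 µM, no second probe set of a called gene was called in the opposite direction.

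The extracellular matrix is the mesh of secreted proteins around cells. Fibrillar collagens give it tensile strength, while type IV collagen, laminins and nidogens form the sheet-like basement membrane on which epithelial cells rest. Fibronectin and the fibrillins bind cells and growth factors, matricellular proteins such as SPARC and CCN2 change how cells attach without building structure, and secreted proteases with their inhibitors set how fast the mesh is cut. Carcinoma cells make part of this matrix themselves, and several of these genes, SPARC among them, are known to be silenced by promoter methylation in some lung cancers.

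Because both drugs act on methylation of CpG sites, start-site windows are printed for 6 genes, with every CG pair in capitals. These are among the largest rises with decitabine or falls with azacitidine at 3 µM, of the genes that have a window. Each window is the RefSeq sequence of GRCh38.p14 from 250 bases before to 50 bases after the start of the gene, read 5′ to 3′ on the strand of the gene. SPARC lies on the minus strand at chr5:151686866-151687165, LAMB3 on the minus strand at chr1:209652376-209652675, CCN2 on the minus strand at chr6:131951323-131951622, FN1 on the minus strand at chr2:215436019-215436318, FBN2 on the minus strand at chr5:128538196-128538495 and PLAU on the plus strand at chr10:73910360-73910659.
SPARC: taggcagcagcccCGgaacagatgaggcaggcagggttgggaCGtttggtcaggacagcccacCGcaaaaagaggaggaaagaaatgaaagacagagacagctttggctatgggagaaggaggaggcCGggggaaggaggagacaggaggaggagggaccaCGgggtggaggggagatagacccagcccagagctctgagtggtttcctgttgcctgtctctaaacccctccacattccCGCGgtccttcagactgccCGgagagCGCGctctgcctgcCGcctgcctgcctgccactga
LAMB3: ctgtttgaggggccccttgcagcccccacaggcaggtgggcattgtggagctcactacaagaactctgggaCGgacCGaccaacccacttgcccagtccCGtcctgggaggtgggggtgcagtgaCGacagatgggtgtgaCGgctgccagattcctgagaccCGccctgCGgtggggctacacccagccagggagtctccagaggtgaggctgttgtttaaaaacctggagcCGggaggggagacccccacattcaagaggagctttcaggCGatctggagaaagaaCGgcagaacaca
CCN2: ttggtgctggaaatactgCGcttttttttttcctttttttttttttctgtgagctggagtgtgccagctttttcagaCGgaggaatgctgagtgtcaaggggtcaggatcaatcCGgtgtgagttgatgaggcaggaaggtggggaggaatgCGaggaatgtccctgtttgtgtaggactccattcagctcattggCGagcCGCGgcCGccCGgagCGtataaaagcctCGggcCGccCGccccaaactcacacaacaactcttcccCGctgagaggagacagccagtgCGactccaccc
FN1: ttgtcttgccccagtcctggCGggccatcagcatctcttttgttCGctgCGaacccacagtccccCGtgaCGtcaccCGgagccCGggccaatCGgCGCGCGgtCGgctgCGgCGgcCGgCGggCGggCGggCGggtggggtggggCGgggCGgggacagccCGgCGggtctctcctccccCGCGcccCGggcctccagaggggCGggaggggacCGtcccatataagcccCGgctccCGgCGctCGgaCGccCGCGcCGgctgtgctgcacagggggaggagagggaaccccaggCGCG
FBN2: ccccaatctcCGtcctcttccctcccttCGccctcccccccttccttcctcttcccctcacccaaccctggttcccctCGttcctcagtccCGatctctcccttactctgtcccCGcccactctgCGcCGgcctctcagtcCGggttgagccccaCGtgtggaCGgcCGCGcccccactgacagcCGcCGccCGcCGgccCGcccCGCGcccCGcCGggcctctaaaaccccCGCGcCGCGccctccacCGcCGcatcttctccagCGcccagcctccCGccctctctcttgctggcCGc
PLAU: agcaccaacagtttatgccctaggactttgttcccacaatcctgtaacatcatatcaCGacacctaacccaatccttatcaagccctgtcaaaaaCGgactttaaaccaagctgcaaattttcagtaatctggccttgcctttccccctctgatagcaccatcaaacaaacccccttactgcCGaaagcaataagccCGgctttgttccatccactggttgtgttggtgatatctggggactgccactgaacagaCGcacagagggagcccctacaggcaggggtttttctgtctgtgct
The windows of the 3 genes printed for the rises with decitabine held 11 CG pairs in SPARC, 10 in LAMB3 and 15 in CCN2, and those of the genes printed for the falls with azacitidine held 38 in FN1, 30 in FBN2 and 5 in PLAU. Over all 27305 windows the median was 14 (quartiles 3 and 28), and over the 39 of the 53 genes with a window it was 22. Of 3 short motifs searched on both strands, GGAATG, which the TEAD factors bind, occurred 3 times in the CCN2 window and once in that of SPARC, against 14% of all windows and 12.8% of the matrix windows with at least 1 match. GGGCGG, an SP1 motif, was in 44.6% of all windows and 74.4% of the matrix windows, and occurred 6 times in FN1, 4 times in FBN2, 3 times in CCN2 and once in LAMB3. TGANTCA, the AP-1 motif, was in 7.76% of all windows, in 5.13% of the matrix windows and in 0 of the 6 printed. No matches of different motifs overlapped in the printed windows. SERPINF1, COL5A2 and LOXL2, also among the largest changes described below, have no window among those 39, so the printed windows leave them out.

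The deposited values are MAS5 signals, whose array medians ran from 92.7 to 123. The first A549 vehicle array had the highest 25th percentile (28.3, against 18.0 on the lowest array) and the highest median, and the first A549 decitabine 3 µM array is labelled as a repeat, so counts are also given without these arrays. A549 showed the epithelial markers of its label, with 8 of 10 above the array median on both vehicle arrays, whereas H1299 showed 2 of 10, KRT8 and KRT18. Endothelial markers (4 of 4) and leukocyte markers (all 4 with a probe set) were under the median on at least 1 array of every group. Of 8 fibroblast markers, ACTA2 and THY1 were above the median on both A549 vehicle arrays, while FAP was at 8.39 and 1.95, LUM at 15.1 and 17.5 and PDGFRB at 12.8 and 4.16. Marker sums below give the lower array first, while single markers are given in array order, so the 2 do not match by position. In bulk samples, fewer cells of a kind and less RNA per cell cannot be told apart.

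In vehicle, A549 exceeded H1299 for 31 of 43 matrix genes and was below it for 8, against 32.4% higher and 32.9% lower among all 8024 genes tested. The 16 genes that passed the filter only through A549 arrays were admitted by the line where they are high, so this count is a description. Of the 25 that passed it through arrays of both lines, 15 were higher in A549 and 7 lower, against 30.3% higher and 33.6% lower of the 7048 such genes. Here a difference is on the log2(signal + 32) scale, which draws dim genes toward 0, and a gene is called where the limma p adjusted over all 8024 genes is under 0.05. Among those 25 were 3 basement membrane and other non-fibrillar collagens, all higher in A549, 5 laminins and nidogens, of which 4 were higher, and 4 proteases and receptors, of which 3 were lower. COL4A1, COL4A2, COL5A2 and THBS1, given next, are among the 16 instead, so their line differences are descriptions. COL4A1 and COL4A2, the paired chains of type IV collagen, read 1812 and 1796 (COL4A1) and 1494 and 1847 (COL4A2) on the A549 vehicle arrays, against 18.0 and 41.8 (COL4A1) and 24.9 and 14 (COL4A2) on the H1299 ones, so the lines did not overlap. COL5A2, a chain of fibril-nucleating type V collagen, read 6238 and 5996 in A549 against 39.3 and 44.3 in H1299 (log2 difference 6.38, SE 0.141). FN1, fibronectin, read 2873 and 3181 in A549 against 175 and 161 in H1299, and THBS1, the matricellular thrombospondin 1, 2016 and 1669 against 35.4 and 25.4.

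Several members were higher in H1299. PLAU, urokinase, read 1182 and 1166 on the A549 vehicle arrays against 2838 and 2638 on the H1299 ones, and PLAUR, its receptor, 612 and 507 in A549 against 3029 and 2874 in H1299. LAMB3, a chain of an epithelial laminin of hemidesmosomes, read 85.1 and 72.5 in A549 against 713 and 707 in H1299, and CCN1, a matricellular integrin ligand, 1104 and 1223 in A549 against 5880 and 5556 in H1299. SPARC, which binds collagen, was dim in H1299 at 26.1 and 30.5, against 358 and 369 in A549. SERPINF1, the secreted antiangiogenic serpin PEDF, read 104 and 99.0 in A549 and 6.77 and 6.90 in H1299. TIMP3, a matrix-bound metalloprotease inhibitor, read 206 and 127 in A549 and 76.8 and 11.2 in H1299, with wide gaps between partner arrays. SERPINF1 and TIMP3 passed the filter only through A549 arrays, so their line differences are descriptions.

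**Figure D1:**
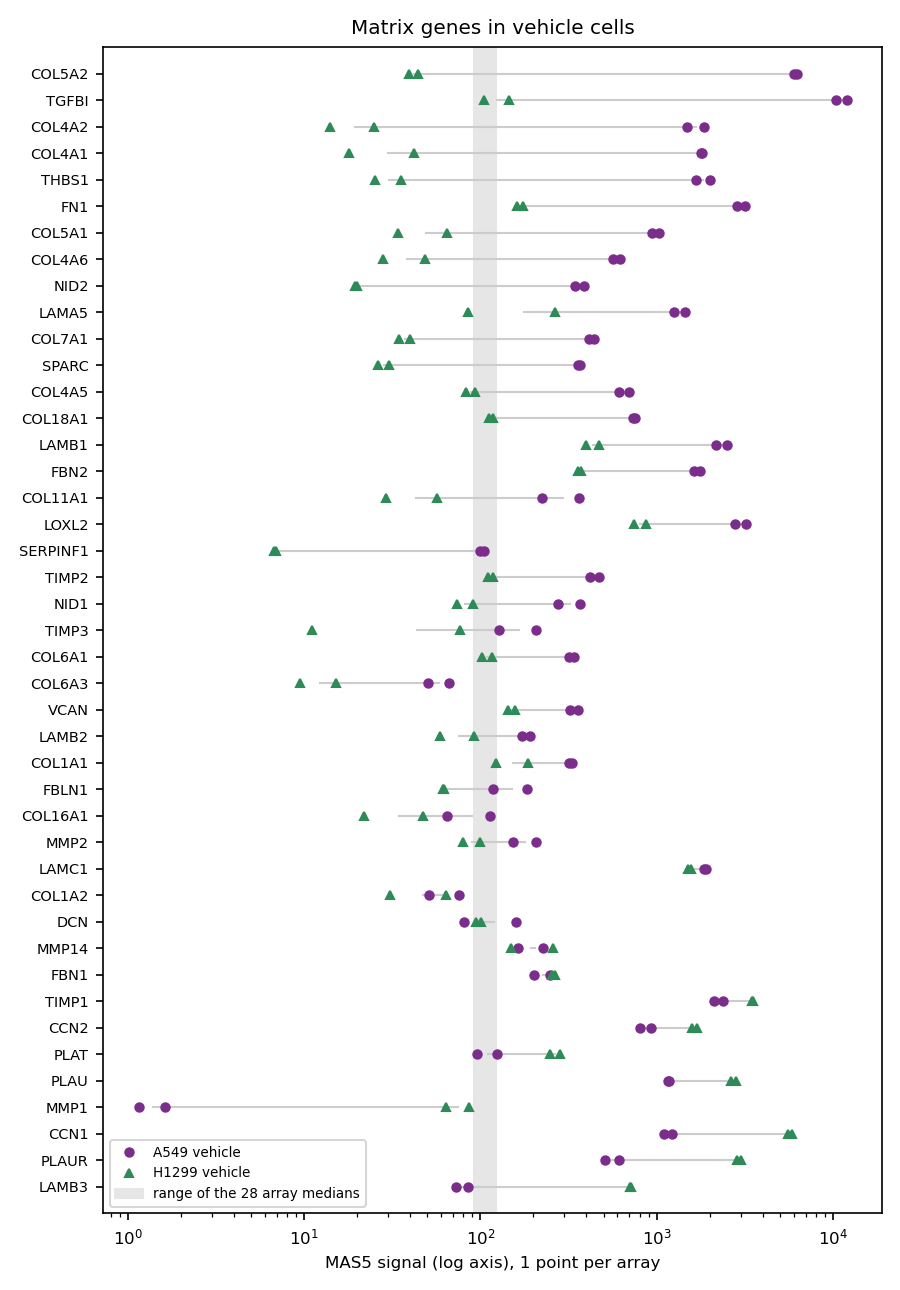
MAS5 signal (log axis) of the 43 tested matrix genes on each vehicle array, A549 as circles and H1299 as triangles, ordered by the log2 difference between the lines; the band spans the 28 array medians of 92.7 to 123. A549 was higher for 31 genes and lower for 8, with LAMB3, PLAUR, CCN1, MMP1 and PLAU at the H1299 end.

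Azacitidine lowered matrix genes of every role in A549. At 3 µM 27 of 43 genes fell and 0 rose, against 16.2% lower and 22.1% higher among all genes, and the median difference was -0.64, against 0.06 over all genes. By limma at an unadjusted p under 0.05, 33 of the 43 passed in either direction, against 46.6% of all genes. All 4 matricellular genes, 6 of 7 laminins and nidogens, 6 of 9 non-fibrillar collagens, 3 of 5 fibrillar collagens and 3 of 5 glycoproteins fell, as did 2 of 6 proteases and receptors and 1 of 4 inhibitors. The summed signal of 10 epithelial markers was 21980 and 25620 on these arrays, against 31830 and 34900 in vehicle, and that of 6 mesenchymal genes was 14910 and 16440, against 22520 and 25200; their part in the falls was not tested. Without the first vehicle array 23 genes fell and 0 rose.

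COL5A2 led the falls in A549. It read 1332 and 1260 at 3 µM against 6238 and 5996 in vehicle, with 2545 and 2569 at 1 µM and 4692 and 4766 at 0.3 µM (difference at 3 µM -2.21, SE 0.141, adjusted p = 2.09e-10). No array at 3 µM came near a vehicle array, and its second probe set, fitted separately, fell by 2.56. FN1 read 720 and 760 at 3 µM against 2873 and 3181 in vehicle (-1.99, SE 0.216, adjusted p = 3.73e-07), and its other 3 probe sets fell by between 1.52 and 2.23. FBN2, a fibrillin of elastic microfibrils, read 460 and 468 against 1771 and 1631 (-1.80, SE 0.0751, adjusted p = 2.14e-13). SPARC read 81.9 and 99.7 against 358 and 369 (-1.69, SE 0.194, adjusted p = 7.46e-07). In each of these genes the treated and the vehicle arrays were far apart.

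Most basement membrane genes tested in A549 were among the falls. COL4A1 read 921 and 912 with azacitidine at 3 µM, against 1812 and 1796 in vehicle, and COL4A2 663 and 710 against 1494 and 1847, differences of -0.95 (SE 0.20) and -1.24 (SE 0.184); the COL4A1 call was lost with a pseudocount of 1 (-0.98, adjusted p = 0.19). LAMB1, a laminin beta chain, read 841 and 700 against 2497 and 2178 (-1.56, adjusted p = 4.04e-09), and NID1 and NID2, which link laminin to type IV collagen, differed by -1.46 and -1.23. LAMC1, the gamma chain shared by many laminins, fell by only 0.30, to 1579 and 1469 against 1916 and 1859, and lost its call without the second azacitidine array (-0.25, adjusted p = 0.0705). The falls of COL4A5, COL4A6 and LAMA5 were lost in 2, 5 and 2 of 14 alternatives. Each was lost without the second azacitidine array (adjusted p = 0.115, 0.242 and 0.083), COL4A5 and COL4A6 also without the first vehicle array (0.0901 and 0.133), and COL4A6 and LAMA5 without the second (0.0745 and 0.0575).

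Of the other genes followed throughout in A549 with azacitidine at 3 µM, THBS1 read 679 and 598 against 2016 and 1669 in vehicle (-1.48, adjusted p = 9.97e-07). CCN2, connective tissue growth factor, read 465 and 575 against 803 and 930 (-0.71, adjusted p = 2.6e-06). PLAU read 764 and 723 against 1182 and 1166 (-0.64, adjusted p = 1.57e-05), while its second probe set was not called (-0.22, adjusted p = 0.298). SERPINF1 read 14.2 and 8.72 against 104 and 99.0 (-1.62, adjusted p = 6.17e-08). TIMP3, at 125 and 127 against 206 and 127, was not called (-0.30, adjusted p = 0.53). LAMB3 was called lower at 51.6 and 14.8 against 85.1 and 72.5, but not without its second azacitidine array (-0.40, adjusted p = 0.271) or the first vehicle array (-0.74, adjusted p = 0.0736).

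**Figure D2:**
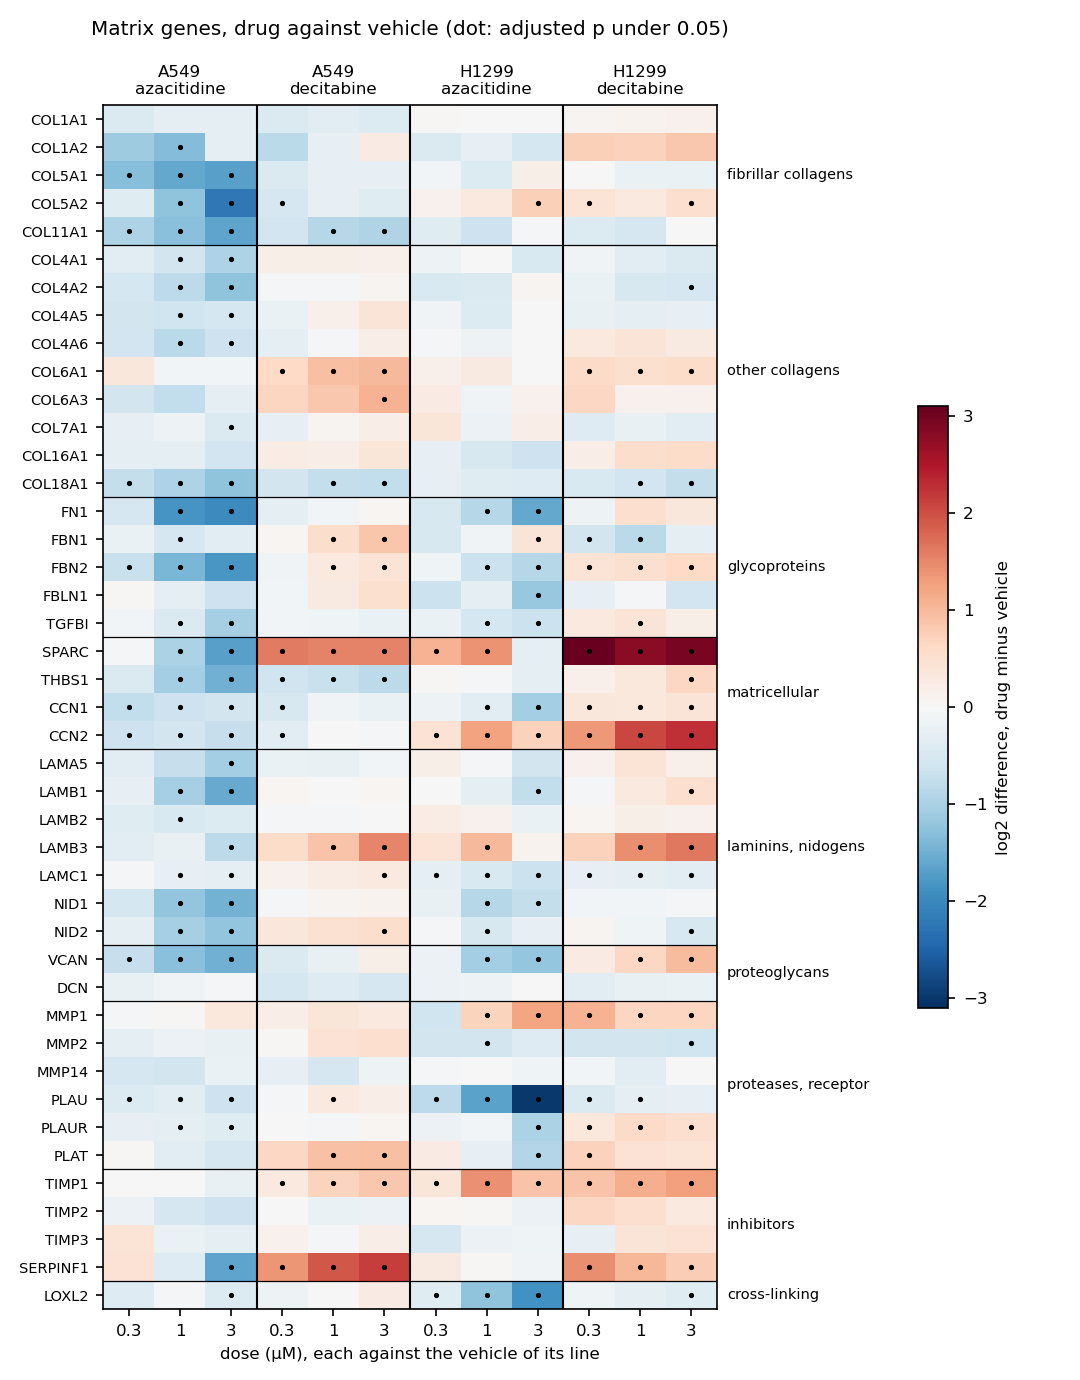
Log2 difference from the vehicle of the same line (red higher, blue lower) for 43 matrix genes grouped by role, at 0.3, 1 and 3 µM of each drug in each line; dots mark an adjusted p under 0.05. The A549 azacitidine column at 3 µM holds 27 falls and 0 rises, with at least 1 fall in every role, and the decitabine columns hold the rises of SPARC, SERPINF1, LAMB3 and TIMP1 in both lines.

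In H1299 azacitidine at 3 µM lowered fewer matrix genes and raised a few. There 13 of 43 fell and 5 rose, against 21.6% lower and 32.3% higher among all genes, with a median of -0.24, against 0.08 over all genes. The median of all genes was -0.10 with median centring of the arrays and 0.04 with quantile normalization, and the counts depended on that choice: 20 fell and 4 rose with median centring, and 13 fell and 4 rose with quantile normalization. The falls held 4 of 5 glycoproteins, 3 of 7 laminins and nidogens, 3 of 6 proteases and receptors, 1 of 4 matricellular genes and 0 of 9 non-fibrillar collagens, most of which were dim in H1299 before treatment. Epithelial markers summed to 3912 and 4043, against 5180 and 5432 in vehicle, and mesenchymal genes to 8700 and 9160, against 13620 and 15800; their part was not tested.

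PLAU showed the steepest fall with azacitidine in H1299. It read 1614 and 1488 at 0.3 µM, 876 and 823 at 1 µM and 335 and 301 at 3 µM, against 2838 and 2638 in vehicle (-2.99, SE 0.0936, adjusted p = 6.08e-16 at 3 µM), and its second probe set fell by 2.43. Every dose lay below every lower one. PLAUR read 1476 and 1470 against 3029 and 2874 (-0.99, adjusted p = 4.59e-08), and PLAT, tissue plasminogen activator, 119 and 131 against 282 and 248. LOXL2, a lysyl oxidase that cross-links collagen, read 222 and 175 against 873 and 746 (-1.87, SE 0.113, adjusted p = 1.51e-11). FN1, already dim, read 65.3 and 12.8 against 175 and 161 (-1.60, SE 0.216, adjusted p = 2.27e-06), with its other 3 probe sets lower by between 0.95 and 1.13. VCAN, the proteoglycan versican, read 55.2 and 40.4 against 158 and 143 (-1.20, SE 0.182, adjusted p = 9.8e-06). For FN1 and VCAN the treated arrays lay below the array medians, whereas those of PLAU and LOXL2 lay above them.

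The genes called higher with azacitidine at 3 µM in H1299 were MMP1, TIMP1, COL5A2, CCN2 and FBN1, of which MMP1 passed the filter only through treated arrays. MMP1, interstitial collagenase, read 215 and 213 against 85.7 and 63.5 in vehicle (1.21, SE 0.215, adjusted p = 6.03e-05), but with a pseudocount of 1 in place of 32 the adjusted p was 0.123. TIMP1, which inhibits MMP1 and other metalloproteases, read 6336 and 6599 against 3517 and 3468 (0.88, SE 0.0898, adjusted p = 4.46e-08). COL5A2 read 95.5 and 87.9 against 39.3 and 44.3 (0.75, SE 0.141, adjusted p = 0.000125), each under the median of its own array. CCN2 read 2787 and 2664 against 1688 and 1591 (0.72, SE 0.089, adjusted p = 6.57e-07). FBN1, the main fibrillin of adult tissue, had an adjusted p of 0.0353 and lost its call in 8 of 13 alternatives, among them both other scalings and the fits without the first vehicle array (0.42, adjusted p = 0.0811), the second (0.37, adjusted p = 0.129) or the second azacitidine array (0.31, adjusted p = 0.203). It read 329 and 375 against 264 and 254. Not called in H1299 were SPARC (22.2 and 12.6 against 26.1 and 30.5), THBS1 (15.3 and 23.7 against 35.4 and 25.4), COL4A1 (23.3 and 3.13 against 18.0 and 41.8), COL4A2 (8.90 and 38.7 against 24.9 and 14), SERPINF1 (4.32 and 3.59 against 6.77 and 6.90) and TIMP3 (42.0 and 20.9 against 76.8 and 11.2), all under the array medians.

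Decitabine raised more matrix genes than it lowered in A549. At 3 µM 11 of 43 rose and 3 fell, against 15.0% higher and 10.8% lower among all genes. COL6A3 and SERPINF1, counted among the rises, passed the filter only through treated arrays. There were 9 rises and 1 fall without the array labelled as a repeat, 9 rises and 5 falls without its partner, and 10 rises and 3 falls without the first vehicle array. The rises were 3 of 7 laminins and nidogens (LAMB3, LAMC1 and NID2), 2 of 9 non-fibrillar collagens (COL6A1 and COL6A3), the fibrillins FBN1 and FBN2, SPARC, PLAT, TIMP1 and SERPINF1, of which PLAT was not called without the second decitabine array (0.58, adjusted p = 0.0581). Epithelial markers summed to 36670 and 42310, against 31830 and 34900 in vehicle, and the 8 fibroblast markers to 2130 and 2365, against 690 and 868. In array order ACTA2, smooth muscle actin and a part of that sum, read 2023 and 1772, against 454 and 395 in vehicle. FAP stood at 7.63 and 2.89, LUM at 7.18 and 18.9 and PDGFRB at 4.06 and 64.8. The part of these markers was not tested.

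SERPINF1 rose at every dose of decitabine in A549. It read 309 and 319 at 0.3 µM, 428 and 524 at 1 µM and 562 and 561 at 3 µM, against 104 and 99.0 in vehicle (2.15, SE 0.155, adjusted p = 2.29e-09 at 3 µM). SPARC read 1006 and 1361, 1030 and 1226, and 1166 and 1069 at the same doses, against 358 and 369 in vehicle (1.54, SE 0.194, adjusted p = 6.03e-06 at 3 µM), so it was as high at the lowest dose as at the highest. LAMB3 read 330 and 245 at 3 µM against 85.1 and 72.5 (1.52, SE 0.248, adjusted p = 0.000122). COL6A3, a chain of beaded-filament type VI collagen, read 150 and 164 against 66.8 and 50.5 (1.07, SE 0.300, adjusted p = 0.012); its call was lost with a pseudocount of 1 (adjusted p = 0.174) and without the second vehicle array (0.94, adjusted p = 0.0774) or the first (1.12, adjusted p = 0.0507) or second (1.01, adjusted p = 0.0609) decitabine array. COL6A3 was above the array median on 5 A549 arrays, with both decitabine arrays at 3 µM among them and neither vehicle array. Treated arrays thus admitted it, and its rise is a description. COL6A1 rose by 1.00 to 673 and 714, against 341 and 319, by the only 1 of its 8 probe sets above the filter.

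The 3 falls with decitabine at 3 µM in A549 were COL11A1, THBS1 and COL18A1. COL11A1, a minor fibrillar chain, read 125 and 147 against 224 and 365 (-0.92, SE 0.250, adjusted p = 0.00915), and was not called with a pseudocount of 1 (-1.07, adjusted p = 0.153) or without the second vehicle array (-0.61, adjusted p = 0.14) or the first decitabine array (-0.83, adjusted p = 0.0803). THBS1 read 886 and 1185 against 2016 and 1669 (-0.82, SE 0.173, adjusted p = 0.00138). COL18A1, the collagen from which endostatin is cut, read 408 and 448 against 757 and 739 (-0.76, SE 0.188, adjusted p = 0.00464), with an adjusted p of 0.0505 without the first decitabine array (-0.70). FN1 (3426 and 2912 against 2873 and 3181), COL4A1 (2041 and 2024 against 1812 and 1796), COL4A2 (1740 and 1789 against 1494 and 1847), CCN2 (824 and 823 against 803 and 930), PLAU (1266 and 1451 against 1182 and 1166) and TIMP3 (161 and 230 against 206 and 127) were not called, although the second probe set of PLAU rose by 0.56 (adjusted p = 0.0108).

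In H1299 decitabine at 3 µM raised 14 of 43 matrix genes and lowered 6, against 16.3% higher and 14.6% lower among all genes. All 4 matricellular genes rose. SPARC read 501 and 440 at 0.3 µM, 411 and 368 at 1 µM and 432 and 425 at 3 µM, against 26.1 and 30.5 in vehicle (2.93, SE 0.194, adjusted p = 2.58e-10 at 3 µM), so a gene under the array median in vehicle stood above it on every decitabine array. Its second probe set rose by 1.41. CCN2 read 4337 and 4072, 7296 and 6725, and 7740 and 8372 over the doses, against 1688 and 1591 (2.27, SE 0.089, adjusted p = 6.27e-14 at 3 µM). CCN1 rose less, to 7286 and 7704 against 5880 and 5556 (0.39, adjusted p = 0.00662), and was not called with the mean of its probe sets (0.34, adjusted p = 0.0514) or without the second vehicle (0.35, adjusted p = 0.0586) or second decitabine array (0.35, adjusted p = 0.0595). THBS1 read 59.9 and 70.8 against 35.4 and 25.4 (0.64, adjusted p = 0.00712), under the array medians throughout, and it was not called with a larger pseudocount (0.29, adjusted p = 0.1), with the mean of its kept probe sets (0.25, adjusted p = 0.29), or without the second vehicle array (0.53, adjusted p = 0.079) or the second decitabine array (0.56, adjusted p = 0.066).

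LAMB3 rose again in H1299, to 2324 and 2195 with decitabine at 3 µM against 713 and 707 in vehicle (1.63, SE 0.248, adjusted p = 3.92e-05). TIMP1 read 8508 and 8327 against 3517 and 3468 (1.26, SE 0.0898, adjusted p = 8.42e-10), and VCAN 362 and 295 against 158 and 143 (0.98, adjusted p = 0.000323). SERPINF1 read 83.6 and 63.1 at 0.3 µM, 50.5 and 43.9 at 1 µM and 33.0 and 34.4 at 3 µM, against 6.77 and 6.90 in vehicle (0.76, SE 0.155, adjusted p = 0.000788 at 3 µM), so its rise was smaller at higher doses and stayed under the array medians. FN1 depended on the probe set: the brightest, at 247 and 197 against 175 and 161, was not called (0.34, adjusted p = 0.253), while its other 3 probe sets, fitted separately, rose by 1.45, 1.17 and 0.75 and were called. Epithelial markers summed to 9592 and 9761, against 5180 and 5432 in vehicle; their part was not tested.

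The largest falls with decitabine in H1299 were small and mostly in dim genes. COL18A1 read 57.1 and 55.6 against 118 and 113 (-0.74, SE 0.188, adjusted p = 0.00498). MMP2, gelatinase A, read 58.5 and 37.0 against 99.4 and 79.3 (-0.61, SE 0.208, adjusted p = 0.0291) and was not called without the first vehicle array (-0.49, adjusted p = 0.185) or the second decitabine array (-0.42, adjusted p = 0.255). COL4A2 read 3.23 and 3.85 against 24.9 and 14 (-0.52, SE 0.184, adjusted p = 0.0348), and NID2 4.98 and 4.45 against 19.4 and 20.01 (-0.49, SE 0.183, adjusted p = 0.0455). COL4A2 lost its call in 7 of 14 alternatives, among them the fits without the first vehicle array (-0.37, adjusted p = 0.256) and without the first (-0.51, adjusted p = 0.125) or second decitabine array (-0.54, adjusted p = 0.103). NID2 lost its call in 8 of 14, with an adjusted p of 0.127 and 0.138 without the first and second vehicle arrays and of 0.129 and 0.143 without the first and second decitabine arrays. COL4A1 (8.17 and 18.1 against 18.0 and 41.8), PLAU (2218 and 2396 against 2838 and 2638, adjusted p = 0.0527) and TIMP3 (49.5 and 74.0 against 76.8 and 11.2) were not called. Without the first vehicle array, or without the first or second decitabine array, the number of falls was 3, 3 and 2.

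**Figure D3:**
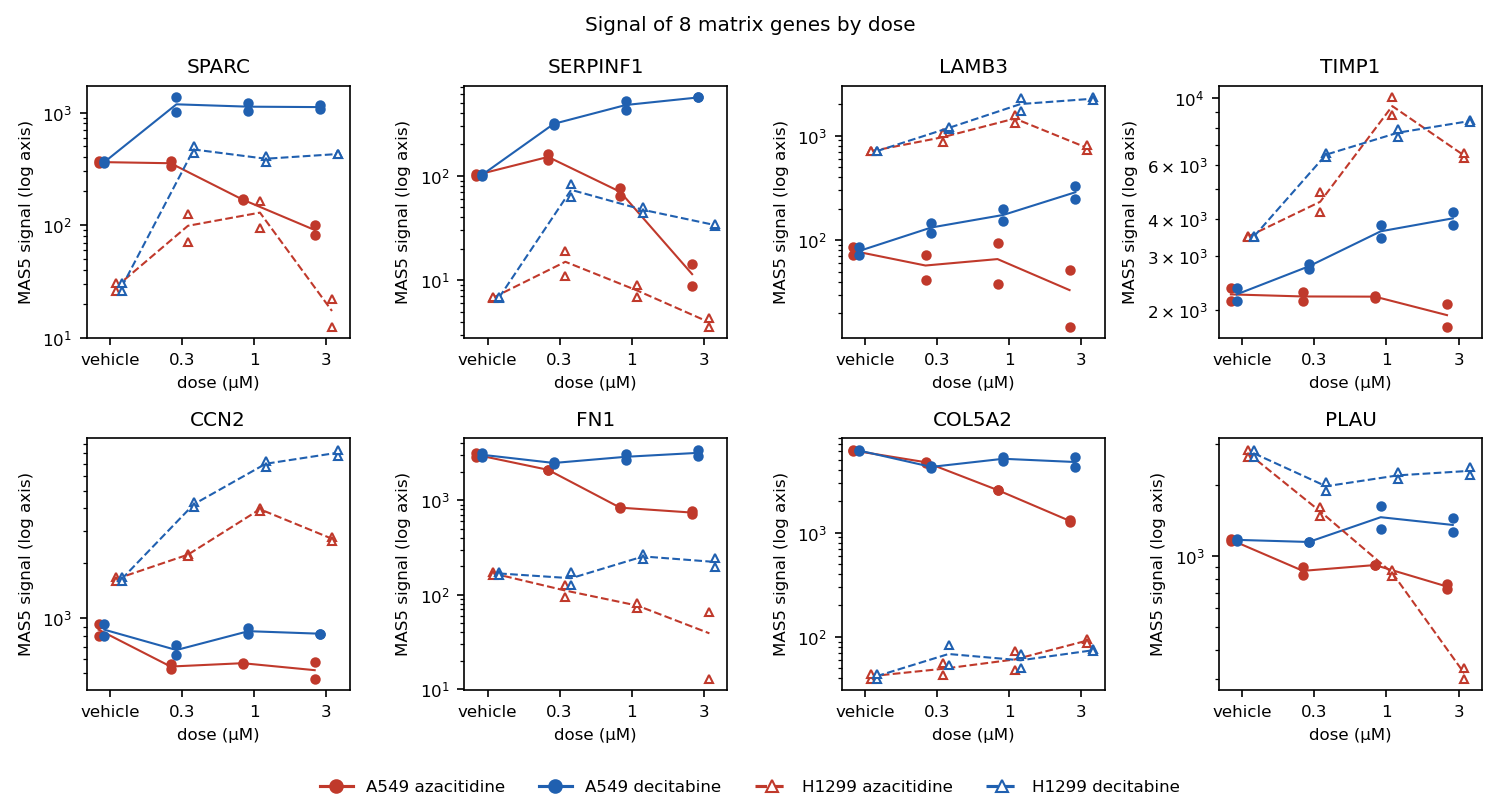
MAS5 signal (log axis) of 8 matrix genes by dose, with azacitidine in red, decitabine in blue, A549 as filled circles and solid lines, H1299 as open triangles and dashed lines; points are arrays and lines join group means, and both drugs of a line share the vehicle arrays. SPARC, SERPINF1 and LAMB3 lie above vehicle with decitabine in both lines, and FN1 falls with azacitidine in both lines, to 720 and 760 in A549 and 65.3 and 12.8 in H1299 at 3 µM.

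The 2 drugs were then set against each other at matched doses, as the mean of the differences at 0.3, 1 and 3 µM, which does not use the vehicle arrays. In A549 azacitidine was lower than decitabine for 37 of 43 genes and higher for 1, against 26.5% lower and 27.9% higher among all genes, with a median of -0.63, against 0.02. In H1299 it was lower for 26 and higher for 3, against 23.1% lower and 30.9% higher, with a median of -0.40, against 0.05. All 9 non-fibrillar collagens, 7 laminins and nidogens, 5 glycoproteins and 4 matricellular genes were lower with azacitidine in A549. In H1299 all 4 matricellular genes, all 4 inhibitors and 4 of 5 glycoproteins were lower. Dose by dose, azacitidine was lower than decitabine in A549 for 9, 27 and 36 genes at 0.3, 1 and 3 µM and higher for 0 at each, against 3.63%, 17.9% and 23.8% lower and 2.07%, 16.4% and 26.6% higher among all genes. In H1299 it was lower for 11, 16 and 22 genes and higher for 1, 2 and 4, against 4.03%, 15.0% and 23.3% lower and 2.36%, 19.0% and 33.0% higher. The lines share no arrays, and 23 genes were lower in both over the doses, which is 62.2% of the A549 list and 88.5% of the H1299 list. Of the 43 genes 60.5% were lower in H1299 and 86.0% in A549, so this overlap was near what those shares alone give. For all genes lower with azacitidine the overlap was 45.8% and 52.7%, where 23.1% were lower in H1299 and 26.5% in A549.

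SPARC differed most between the drugs in A549 (-2.46, SE 0.112, adjusted p = 1.88e-13) and in H1299 (-2.21, SE 0.112, adjusted p = 7.9e-13). In A549 it read 336 to 374, 168 to 170 and 81.9 to 99.7 with azacitidine at 0.3, 1 and 3 µM, against 1006 to 1361, 1030 to 1226 and 1069 to 1166 with decitabine. In H1299 azacitidine at 0.3 and 1 µM raised it as well, to 126 and 71.6 and to 165 and 93.8, and the gap to decitabine at 3 µM was -3.23 in each line. SERPINF1 differed by -2.33 in A549 (SE 0.0893) and -1.01 in H1299. It passed the filter only through treated A549 arrays, so these differences are descriptions. FBN2 differed by -1.51 in A549 (SE 0.0433, adjusted p = 8.27e-17) and -1.08 in H1299, and FN1 by -1.34 and -1.23. PLAU differed by -0.63 in A549 and -1.48 in H1299 (SE 0.0541, adjusted p = 3.47e-15), and VCAN by -0.99 and -1.43 (SE 0.105, adjusted p = 3e-10). At every dose the azacitidine arrays of SPARC, SERPINF1 and FBN2 lay below the decitabine arrays in both lines.

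THBS1 was lower with azacitidine, by a difference of -0.29 in A549 and -0.48 in H1299, and so was CCN2, by -0.49 and -1.09. The THBS1 call in A549 was lost with a pseudocount of 1 (adjusted p = 0.0946) and in 5 fits that left out 1 array (-0.26 to -0.20). COL4A1 and COL4A2 differed by -0.79 and -0.86 in A549; in H1299, where both are dim, they were not called, with 95% intervals of -0.15 to 0.33 (COL4A1) and -0.09 to 0.35 (COL4A2). TIMP3 was not called in A549 (-0.13, interval -0.54 to 0.28), and in H1299 its call (-0.47, adjusted p = 0.0491) was lost in 11 of 21 alternatives, 7 of them fits that left out 1 array (-0.49 to -0.39).

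Few genes ran the other way. DCN, the proteoglycan decorin, was higher with azacitidine in A549 (0.37, SE 0.126, adjusted p = 0.018); it read 84.3 and 102, 121 and 89.9, and 138 and 89.6 with azacitidine over the doses, against 67.5 and 68.2, 76.7 and 80.4, and 56.5 and 88.1 with decitabine, all near or under the array medians, and it was not called in 4 fits that left out 1 array, those without the second azacitidine array at 0.3 µM (0.33, adjusted p = 0.0503), the first at 1 µM (0.31, adjusted p = 0.061), the first at 3 µM (0.29, adjusted p = 0.0738) or the first decitabine array at 3 µM (0.29, adjusted p = 0.0707). In H1299 FBN1 was higher with azacitidine (0.50, SE 0.0897, adjusted p = 8.01e-05), at 329 and 375 against 215 and 199 with decitabine at 3 µM. COL7A1, the anchoring-fibril collagen, was also higher there (0.44, SE 0.099, adjusted p = 0.000699), at signals of 21.9 to 60.9 with azacitidine and 16.6 to 39.7 with decitabine. COL18A1 was called in H1299 at an adjusted p of 0.0489 (0.26) but not in 14 of 22 alternatives. In A549 all 3 were lower with azacitidine, with differences of -0.84 for FBN1, -0.29 for COL7A1 and -0.30 for COL18A1, of which COL7A1 was lost in 2 of 21 alternatives, among them the fit without the second azacitidine array at 0.3 µM (-0.24, adjusted p = 0.0627), and COL18A1 in 5 of 22.

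**Figure D4:**
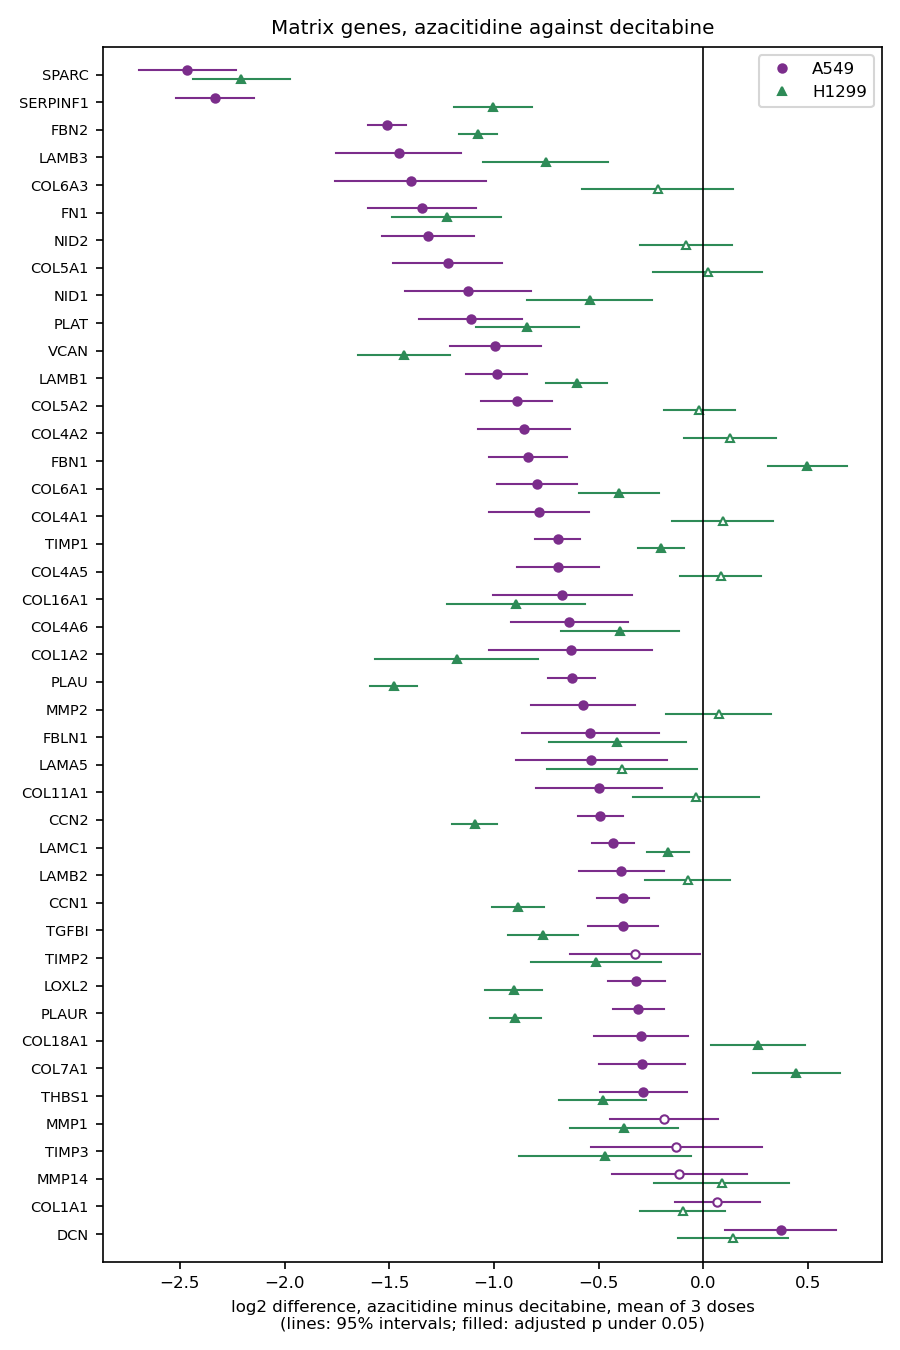
Log2 difference of azacitidine minus decitabine, mean of the 3 matched doses, for 43 matrix genes in A549 (circles) and H1299 (triangles), with 95% intervals; filled points have an adjusted p under 0.05. Nearly all A549 points lie left of 0, and FBN1, COL7A1 and COL18A1 lie on opposite sides of 0 in the 2 lines.

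More genes differed between the highest and the lowest dose with azacitidine than with decitabine in A549, and this held over all genes as well. The dose effects of the drugs were not tested against each other. At 3 µM against 0.3 µM of azacitidine 18 of 43 genes were lower and 0 higher, against 13.4% lower and 21.0% higher among all genes, and for decitabine 10 were higher and 0 lower, against 5.67% higher and 3.2% lower. In H1299 the azacitidine counts were 15 lower and 6 higher, against 21.8% and 33.7%, and the decitabine counts were 5 higher and 2 lower, against 5.67% and 4.26%. At 0.3 µM, the lowest dose, azacitidine lowered 8 genes and raised 0 in A549, against 1.27% lower and 1.17% higher among all genes, and lowered 3 and raised 3 in H1299, against 3.22% and 2.46%. Decitabine at 0.3 µM raised 4 and lowered 4 in A549, against 4.31% and 3.38%, and raised 11 and lowered 3 in H1299, against 8.9% each way. Between them, at 1 µM, azacitidine lowered 25 and raised 0 in A549, against 12.1% and 13.1%, and lowered 11 and raised 5 in H1299, against 15.4% and 19.9%. Decitabine at 1 µM raised 9 and lowered 3 in A549, against 9.78% and 6.79%, and raised 12 and lowered 4 in H1299, against 11.8% and 11.6%. These counts rest on few arrays. At 0.3 µM in A549 the 8 azacitidine calls became 4 or 5 without any 1 of the 4 arrays compared, and the 8 decitabine calls became 2 without the first decitabine array and 4 without the second or without the first vehicle array. At 0.3 µM in H1299 the 6 azacitidine calls became 2 without the first azacitidine or the second vehicle array and 3 without the first vehicle array, and the 14 decitabine calls became 8 without the first decitabine or the first vehicle array and 7 without the second vehicle array. At 1 µM in A549 the 12 decitabine calls became 7 without either decitabine array or the second vehicle array. Between 3 and 0.3 µM in A549, the 18 azacitidine calls became 11 without the second 3 µM array, and the 10 decitabine calls became 6 without the first array of either dose and 5 without the second 0.3 µM array. The 7 decitabine calls in H1299 became 1 without the first 3 µM array, 3 without the first 0.3 µM array and 4 without the second array of either dose.

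Group means fell at every step from vehicle through 0.3, 1 and 3 µM for 20 of 43 genes with azacitidine in A549 and for 11 in H1299, against 11.4% and 9.95% of all genes. They rose at every step for 10 with decitabine in A549 and for 8 in H1299, against 15.3% and 12.7%. With decitabine they also fell at every step for 4 in A549 and for 7 in H1299, against 10.8% and 12% of all genes. FN1, FBN2, LAMB1, LAMC1, COL18A1, TGFBI and VCAN stepped down with azacitidine in both lines. With decitabine LAMB3 and TIMP1 stepped up in both, and COL18A1 stepped down in both. Other genes peaked at 1 µM of azacitidine in H1299. TIMP1 read 8791 and 10070 there at 1 µM, against 6336 and 6599 at 3 µM and 3517 and 3468 in vehicle. CCN2 read 4034 and 3871 at 1 µM against 2787 and 2664 at 3 µM, and LAMB3 1332 and 1588 against 727 and 806. SPARC had its highest azacitidine signals at 1 µM too, 165 and 93.8, but these overlapped with those at 0.3 µM.

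The response at 3 µM was compared between the lines, which share no arrays. For azacitidine 22 of 43 genes differed, 17 lower and 5 higher in A549 than in H1299, against 17.5% lower and 13.9% higher among all genes. COL5A2 fell by 2.21 in A549 and rose by 0.75 in H1299, a difference of -2.96 (SE 0.199, adjusted p = 5.58e-10). The fibrillar collagens COL5A1 (-1.85, SE 0.304, adjusted p = 9.45e-05) and COL11A1 (-1.61, SE 0.353, adjusted p = 0.00151) followed: COL5A1 read 288 and 284 against 942 and 1035 in vehicle in A549, and 63.4 and 53 against 64.5 and 34.3 in H1299, and COL11A1 80.4 and 60.6 against 224 and 365 in A549, and 41.3 and 38.7 against 57 and 29.2 in H1299. All 3 were under the array median on both H1299 vehicle arrays. PLAU (2.35, SE 0.132, adjusted p = 4.39e-11), LOXL2 (1.46, SE 0.159, adjusted p = 5.99e-07) and PLAUR (0.61, SE 0.142, adjusted p = 0.00249) fell further in H1299; LOXL2 in A549 read 2225 and 2257 against 2776 and 3230, and PLAUR 438 and 406 against 612 and 507. SPARC, THBS1, COL4A2, CCN2 and SERPINF1 also differed, by -1.40, -1.20, -1.31, -1.43 and -1.51. Of these genes COL5A2, COL5A1, COL11A1, THBS1, COL4A2 and SERPINF1 passed the filter only through A549 arrays. With a pseudocount of 1 the calls of THBS1 (adjusted p = 0.0667), COL4A2 (adjusted p = 0.169) and COL11A1 (adjusted p = 0.0526) were lost. FN1 (-0.39, interval -1.02 to 0.25), COL4A1 (-0.49, interval -1.08 to 0.10) and TIMP3 (-0.17, interval -1.17 to 0.84) did not pass.

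For decitabine 16 of 43 genes differed between the lines, 8 in each direction, against 9.42% higher and 7.9% lower in A549 among all genes. CCN2 rose in H1299 and was not called in A549, and the difference between the lines was -2.34 (SE 0.126, adjusted p = 8.6e-11). THBS1 fell in A549 and rose in H1299 (-1.46, SE 0.245, adjusted p = 0.000274). SPARC rose in both and further in H1299 on this scale (-1.40, SE 0.274, adjusted p = 0.00128). SERPINF1 rose further in A549 on this scale (1.39, SE 0.219). It passed the filter only through treated A549 arrays, so this difference is a description. MMP2 (1.14, SE 0.294, adjusted p = 0.00994) read 243 and 302 against 206 and 154 in A549 and 58.5 and 37.0 against 99.4 and 79.3 in H1299, and FBN1 (1.13, SE 0.220, adjusted p = 0.00115) 446 and 417 against 250 and 203 in A549 and 215 and 199 against 264 and 254 in H1299. PLAU differed by 0.45 (adjusted p = 0.023), which was lost without the second vehicle or second decitabine array of A549 or the first vehicle or first decitabine array of H1299 (0.35 to 0.44, adjusted p = 0.0568 to 0.107), and FN1, COL4A1, COL4A2 and TIMP3 did not pass. The SPARC difference was not called with a larger pseudocount (-0.49, adjusted p = 0.0709), the SERPINF1 difference not with a pseudocount of 1 (0.31, adjusted p = 0.711), and the MMP2 difference not without the second A549 vehicle array (0.96, adjusted p = 0.0507) or the second H1299 decitabine array (0.94, adjusted p = 0.0598).

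Set beside each other, the lists of the 2 lines overlapped in part. With azacitidine at 3 µM 11 genes were lower in both lines, 40.7% of the 27 in A549 and 84.6% of the 13 in H1299: the glycoproteins FN1, FBN2 and TGFBI, the laminin and nidogen chains LAMB1, LAMC1 and NID1, CCN1, VCAN, PLAU, PLAUR and LOXL2. Over all genes the 709 lower in both were 54.4% of the A549 list and 40.9% of the H1299 list. The lists differ in size: 30.2% of the 43 genes were lower in H1299 and 62.8% in A549, against 21.6% and 16.2% of all genes. The NID1 fall in H1299 was lost without the first vehicle array (adjusted p = 0.101) or the second azacitidine array (adjusted p = 0.216), the PLAUR fall in A549 without the first vehicle (adjusted p = 0.106) or the second azacitidine array (adjusted p = 0.0544), and the LOXL2 fall in A549 without the second vehicle array (adjusted p = 0.0966). With decitabine at 3 µM 6 genes were higher in both, 54.5% of the 11 in A549 and 42.9% of the 14 in H1299: SPARC, SERPINF1, LAMB3, COL6A1, FBN2 and TIMP1. Over all genes the 468 higher in both were 38.9% and 35.8%. Of the 43 genes 32.6% were higher in H1299 and 25.6% in A549, against 16.3% and 15.0% of all genes. The COL6A1 rise in H1299 was lost without the second vehicle array (adjusted p = 0.0804) or the first decitabine array (adjusted p = 0.0837). COL18A1 was lower in both. FBN2 is thus lower with azacitidine and higher with decitabine in each line. LAMC1 and NID2 were higher with decitabine in A549 and lower in H1299, and the line difference was called for both (0.64 and 1.04). Without the second A549 vehicle array or the first A549 decitabine array the LAMC1 rise had an adjusted p of 0.0524 or 0.0715, and without the first H1299 decitabine array its fall had one of 0.0518. The NID2 rise in A549 was lost in 6 of 14 alternatives, those without each of its 4 arrays among them (0.46 to 0.62).

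**Figure D5:**
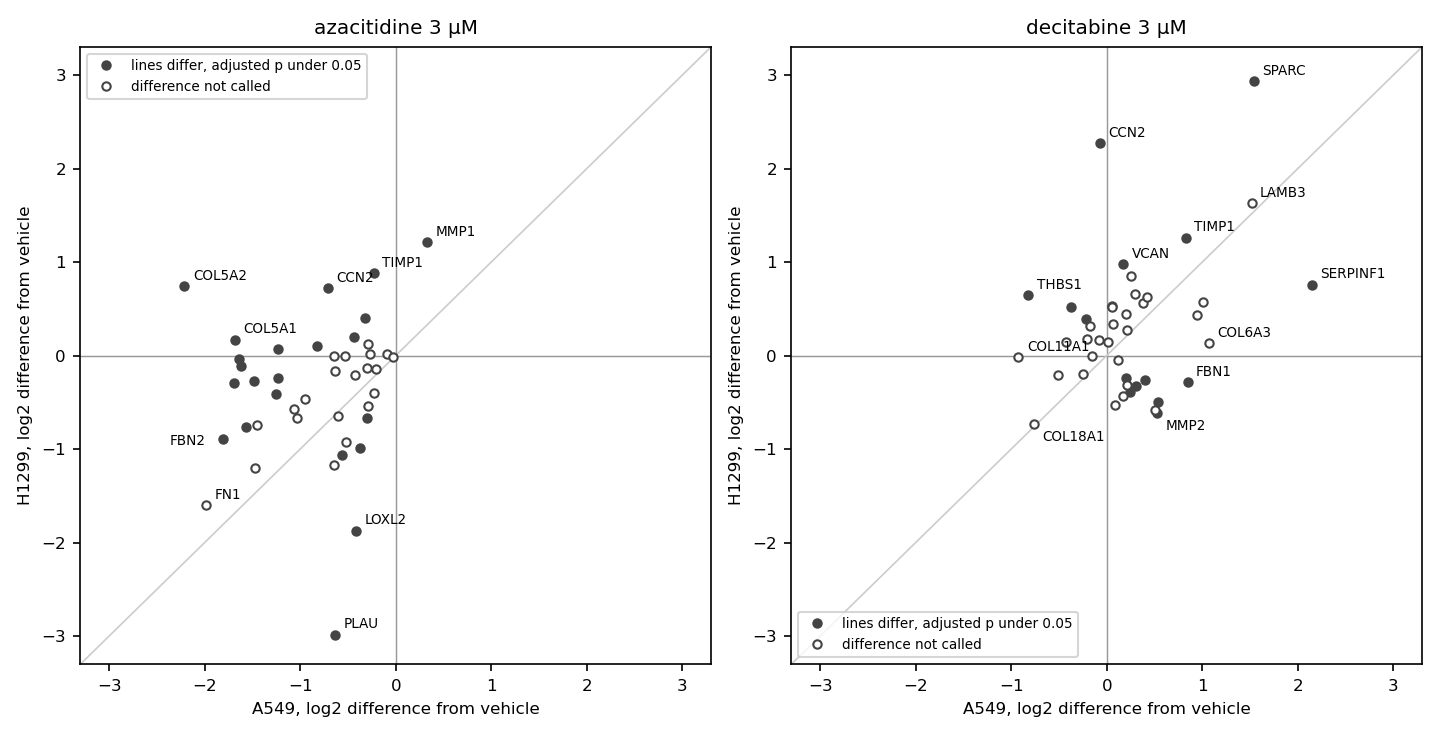
Log2 difference from vehicle at 3 µM in A549 (horizontal) and H1299 (vertical) for 43 matrix genes, azacitidine left and decitabine right; filled points mark genes whose response differed between the lines with an adjusted p under 0.05, and the diagonal marks equal responses. COL5A2 and PLAU stand apart with azacitidine, and CCN2, SPARC and SERPINF1 with decitabine.

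Genes of the same pathway outside the 53 were counted in 5 lists. Over all genes azacitidine at 3 µM lowered 16.2% and raised 22.1% in A549 and lowered 21.6% and raised 32.3% in H1299, and decitabine raised 15.0% and lowered 10.8% in A549 and raised 16.3% and lowered 14.6% in H1299. Of 16 tested genes that fold, modify and process collagen, azacitidine at 3 µM lowered 8 and raised 1 in A549 and lowered 9 and raised 3 in H1299, while decitabine raised 4 and lowered 0 in A549 and raised 4 and lowered 2 in H1299. PLOD1, a lysyl hydroxylase of collagen, fell with azacitidine in both lines, with differences of -0.79 in A549 and -1.005 in H1299. SERPINH1, the collagen chaperone HSP47, differed by -1.16 with azacitidine in A549 but by 0.61 in H1299, and with decitabine it rose by 1.33 in H1299. P4HA2, a prolyl hydroxylase subunit, rose with decitabine by 0.86 in A549 and 0.63 in H1299. With azacitidine it rose further in H1299, by 1.18.

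Of 13 tested matrix receptors, azacitidine at 3 µM lowered 6 and raised 1 in each line, against 16.2% lower and 22.1% higher of all genes in A549 and 21.6% and 32.3% in H1299. Decitabine raised 3 and lowered 1 in A549, and raised 1 and lowered 4 in H1299, against 15.0% and 10.8% of all genes in A549 and 16.3% and 14.6% in H1299. ITGB4, the laminin-binding integrin beta subunit of hemidesmosomes, fell by 1.06 with azacitidine and rose by 1.38 with decitabine in A549. In H1299 it rose by 0.57 with azacitidine. CD44, the hyaluronan receptor, fell by 1.92 and ITGA6, the partner of ITGB4, fell by 1.70 with azacitidine in H1299. SDC4, a syndecan coreceptor, rose by 0.24 with decitabine in A549.

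Of 19 tested TGF-beta ligands, receptors, SMAD proteins and targets, azacitidine at 3 µM lowered 12 and raised 1 in A549 (median -0.47) and lowered 4 and raised 8 in H1299 (median 0.25), against 16.2% lower and 22.1% higher of all genes in A549 and 21.6% and 32.3% in H1299, the H1299 falls being near the share over all genes. TGFBR2, the type II receptor, had differences of -1.07 in A549 and -0.97 in H1299 with azacitidine, and of -1.02 in H1299 with decitabine. SKIL, a repressor of SMAD signalling, rose by 2.23 with azacitidine in H1299. Decitabine lowered 3 and raised 1 of the 19 in A549, and lowered 3 and raised 5 in H1299. Over all genes it lowered 10.8% and raised 15.0% in A549, and lowered 14.6% and raised 16.3% in H1299, so the falls in H1299 were near the share over all genes. Among 13 other matrix proteins azacitidine lowered 6 and raised 0 in A549, with AGRN, agrin, at -1.12, against 16.2% and 22.1% of all genes. It lowered 2 and raised 1 in H1299, with AGRN at -0.89, against 21.6% and 32.3%. Decitabine raised 2 of the 13 in A549, near the 15.0% of all genes, and 4 in H1299, against 16.3%. It lowered 0 in each, against 10.8% in A549 and 14.6% in H1299. Among 15 other proteases and inhibitors, azacitidine lowered 7 and raised 1 in A549 and lowered 3 and raised 3 in H1299, against 16.2% lower and 22.1% higher of all genes in A549 and 21.6% and 32.3% in H1299. TFPI2, a Kunitz inhibitor of plasmin, fell by 0.84 with azacitidine and rose by 1.76 with decitabine in H1299. In that list decitabine raised 3 and lowered 3 in A549, against 15.0% and 10.8% of all genes, and raised 5 and lowered 1 in H1299, against 16.3% and 14.6%.

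Over the means of the 14 groups, the 3 genes whose log2 signal followed that of SPARC most closely among the 8024 were CYBC1 (r = 0.955), ANPEP, the surface aminopeptidase N (r = 0.945), and ACOT9 (r = 0.938). The groups share line, drug and dose, so this is a description. ANPEP had mean signals of 279, 275 and 297 with decitabine at 0.3, 1 and 3 µM in A549 against 72.9 in vehicle, and of 147, 108 and 96.5 in H1299 against 11.4.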

How the data were processed

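Total RNA of 2 lung cancer lines was measured on 28 arrays, 2 for each of 14 groups. The values deposited by the authors are intensity values on a linear scale, MAS5 signals per the submitters' processing notes. The 2% trimmed means of the deposited arrays lay between 500.125 and 500.159. Of 22277 probe sets, the platform annotation named 1 gene for 19070, several for 1043 and none for 2164. Single-gene probe sets above the array's own median on 2 or more arrays were kept, and the kept one with the highest mean stood for its gene, leaving 8024 genes. A limma model (version 3.58.1, R 4.3.3) of log2(signal + 32), with 1 mean per group and 14 residual degrees of freedom, used eBayes with a trend. Each of 27 comparisons was adjusted by Benjamini-Hochberg over all genes, two-sided, at 0.05. No label says whether replicate numbers pair arrays, so the model does not use them. Same-numbered deviations from the group means correlated over 0.1 in 9 of 21 pairs of A549 groups (r from -0.245 to 0.266). In H1299 they did so in 3 of 21 (r from -0.0784 to 0.156). Pairing thus stayed unknown.

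The 53 members, all lists, and the naming rule were chosen with earlier results of these data known. Named with values were the members with the largest called changes (4 each way against vehicle at 3 µM, 3 each way between drugs or lines), FN1, SPARC, THBS1, COL4A1, COL4A2, CCN2, PLAU, TIMP3 and SERPINF1, and further members singled out after their values were seen. Pathway genes named are among the 3 largest called per list and direction. Alternatives were quantile normalization, median centring, smaller and larger pseudocounts, the filter dropped or set at the 75th percentile, the mean of kept probe sets, 1 line alone, eBayes without trend, a replicate block, and each array left out in turn. Separate fits of each probe set were added after seeing the data.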

Additional observations from a re-analysis of the deposited data

Results flagged for a closer look

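The response at 3 µM differed between the lines by a direct test for the genes below, given as A549 minus H1299 on the log2 scale. Of the genes that the naming rule took for azacitidine, PLAU differed by 2.35, LOXL2 by 1.46 and PLAUR by 0.61, the fall being smaller in A549, and COL5A2 differed by -2.96, COL5A1 by -1.85 and COL11A1 by -1.61, the A549 signal falling where H1299 showed a rise (COL5A2) or no called change (COL5A1 and COL11A1). For decitabine SERPINF1 differed by 1.39, MMP2 by 1.14 and FBN1 by 1.13, and CCN2 by -2.34, THBS1 by -1.46 and SPARC by -1.40. In vehicle the H1299 signal lay under the array median on both arrays for COL5A2, COL5A1, COL11A1, THBS1, SPARC, SERPINF1 and MMP2. The part of that low level in these differences was not tested. All of these but SPARC passed the filter only through A549 arrays.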

How the results depend on the processing

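Of 223 member calls, 160 held in every alternative tried, 63 were lost in at least 1, and 1 of these reversed: the MMP1 line difference for azacitidine became 0.65 with a pseudocount of 1 (adjusted p = 0.722). With the replicate block 2 of the 223 were lost, the COL18A1 drug difference in H1299 (0.26, adjusted p = 0.0598) and the LAMB3 line difference for azacitidine (-0.93, adjusted p = 0.06). Counts that moved by over 1.5 times follow, with the cause not tested except where fewer members were tested. For A549 azacitidine at 0.3 µM (8 called) the count was 4 with a pseudocount of 1, 14 with the larger one and 5 with no filter. With a pseudocount of 1 there was 1 rise, against 0, for A549 azacitidine at 3 µM, 3 against 5 for H1299 azacitidine at 3 µM, and 5 against 10 calls between decitabine doses in A549. With the larger pseudocount the falls for A549 decitabine at 3 µM were 5 against 3. With no filter the falls for H1299 decitabine at 3 µM were 3 against 6, and with median centring those for H1299 azacitidine were 20 against 13. The filter at the 75th percentile left 25 members: it gave 3 rises for H1299 azacitidine, 0 for the drug difference in A549, 1 rise and 17 falls for that in H1299, and 25 calls between the vehicles. With each array left out, the counts at 3 µM were 0 rises and 21 to 27 falls (A549 azacitidine), 8 to 10 and 1 to 5 (A549 decitabine), 4 to 6 and 13 to 16 (H1299 azacitidine), and 11 to 14 and 2 to 5 (H1299 decitabine). For azacitidine they were 4 to 5 calls at 0.3 µM and 17 to 22 at 1 µM in A549 and 2 to 4 and 12 to 16 in H1299, and for decitabine 2 to 6 and 7 to 9 in A549 and 7 to 12 and 11 to 13 in H1299. Between 3 and 0.3 µM they were 11 to 16 (azacitidine) and 5 to 7 (decitabine) in A549 and 16 to 22 and 1 to 4 in H1299. The drug difference had 0 to 1 rises and 35 to 37 falls in A549 and 2 to 3 and 23 to 26 in H1299, the line difference 17 to 22 calls for azacitidine and 11 to 15 for decitabine, and the vehicles 37 to 40. Signals near or under the array median limit the sizes given for genes dim in 1 line.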
